A study of Homo sapiens with 15 samples.

Results

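The genes described here are nuclear genes for proteins of oxidative phosphorylation or for factors that help assemble its complexes. They were all protein-coding genes of the array's annotation whose symbols begin with NDUF, UQCR, ATP5, COX4 to COX8 or SDHA to SDHD, with pseudogenes left out and, per gene, the feature of highest mean over the 15 arrays. This gave 31 genes of 14812 named genes. The rule used names only and no measured difference between groups, apart from the mean level that decided between features of the same gene. The set held 2 complex I assembly factors, 4 complex II assembly factors, 5 complex III genes, 11 widely expressed complex IV genes, 6 complex IV isoforms of restricted tissue expression and 3 complex V genes. The complex II assembly factors SDHAF1 to SDHAF4 came in because their symbols begin with SDHA. Complex I subunits and the complex II subunits themselves were not analysed here, so the label of oxidative phosphorylation subunits is met only in part, and most members belong to complex IV.

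Expression was measured in MV4-11, an established human acute myeloid leukemia line of monocytic type that carries a KMT2A fusion, on Affymetrix whole-transcript arrays. Cells received OTX015 at 300 nM, DW71177 at 300 nM, RVX208 at 5 uM, DW71374 at 300 nM or the vehicle DMSO for 24 h, with 3 arrays per group. OTX015 (birabresib) inhibits both bromodomains of the BET proteins, which read acetylated histones at active genes, whereas RVX208 (apabetalone) is selective for the second. Of DW71177 and DW71374 only the code names are known here. All 5 groups share the same cell line and medium, and the labels give wells in triplicate without saying whether these were separate cultures, so the p-values cover array-to-array spread alone, which may be technical.

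Oxidative phosphorylation takes place in the inner mitochondrial membrane. Complexes I and II pass electrons to ubiquinone, complex III passes them to cytochrome c, complex IV passes them to oxygen, and complex V uses the resulting proton gradient to make ATP. Assembly factors help build the complexes and are not part of the finished enzymes. Acute myeloid leukemia cells are known to depend on this pathway for energy, and several of its nuclear genes are known targets of the factors NRF1, GABP (an ETS factor) and YY1.

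Promoters of 4 members are printed because they set the 3 genes with the lowest adjusted p among those lower with OTX015 that had a promoter beside a complex IV gene, COX5B, that was not called and holds 2 of the motifs searched. COX5B was chosen after its values were seen. Each runs 5′ to 3′ from 250 bases before to 50 bases after the annotated start, from RefSeq on GRCh38.p14. Capitals mark CCGGAAG or its reverse complement (ETS) and GCATGC (the NRF1 core). The windows are chr17:81239664-81239963 on the plus strand for NDUFAF8, chr10:103396426-103396725 on the minus strand for ATP5MK, chrX:77899218-77899517 on the plus strand for COX7B and chr2:97645812-97646111 on the plus strand for COX5B.
NDUFAF8: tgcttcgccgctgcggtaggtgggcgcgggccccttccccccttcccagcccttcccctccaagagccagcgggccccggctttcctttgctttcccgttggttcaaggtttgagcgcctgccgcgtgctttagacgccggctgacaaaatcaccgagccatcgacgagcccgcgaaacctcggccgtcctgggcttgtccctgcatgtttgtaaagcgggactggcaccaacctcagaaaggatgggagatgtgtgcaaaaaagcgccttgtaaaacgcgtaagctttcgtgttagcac
ATP5MK: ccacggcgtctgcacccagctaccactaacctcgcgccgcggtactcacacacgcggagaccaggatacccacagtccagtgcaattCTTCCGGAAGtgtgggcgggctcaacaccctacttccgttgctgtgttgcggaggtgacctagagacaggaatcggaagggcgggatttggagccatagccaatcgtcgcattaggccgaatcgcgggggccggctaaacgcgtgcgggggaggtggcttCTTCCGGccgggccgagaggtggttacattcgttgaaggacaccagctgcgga
COX7B: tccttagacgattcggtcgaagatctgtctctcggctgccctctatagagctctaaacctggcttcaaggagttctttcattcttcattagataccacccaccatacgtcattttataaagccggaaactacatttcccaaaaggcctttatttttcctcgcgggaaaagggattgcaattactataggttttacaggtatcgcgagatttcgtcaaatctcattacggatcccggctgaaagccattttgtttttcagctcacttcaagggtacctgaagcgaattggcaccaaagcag
COX5B: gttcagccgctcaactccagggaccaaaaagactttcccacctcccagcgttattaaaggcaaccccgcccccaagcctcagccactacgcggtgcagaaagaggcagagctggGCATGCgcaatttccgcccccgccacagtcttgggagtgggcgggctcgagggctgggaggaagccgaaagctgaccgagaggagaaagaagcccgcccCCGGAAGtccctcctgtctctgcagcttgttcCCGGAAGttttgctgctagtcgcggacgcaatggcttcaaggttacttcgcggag

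The ATP5MK window held CCGGAAG on both strands in overlapping copies at positions -163 and -160 from the start, and a further copy at -3. COX5B held GCATGC at -136 and CCGGAAG at -37 and -5. NDUFAF8 and COX7B held none of the 4 motifs searched. Of the 31 members, 26 had a promoter in the table; UQCRB, UQCRHL, COX6C, COX4I2 and COX7A1 did not match. Both strands were searched. CCGGAAG was in 9 of 26 member promoters (34.6%), in 10.3% of all 35116 promoters and in 15% of the 10736 promoters of genes tested. GCATGC was in 3 of 26 (11.5%), against 7.22% of all promoters and 8.39% of those tested. AAGATGG (YY1) was also in 3 of 26 (11.5%), against 5.84% of all promoters and 6.61% of those tested. CACGTG, the E-box bound by MYC with MAX, was in 0 of 26, against 7.26% of all promoters and 9.03% of those tested. Among the 8 promoters of members lower with OTX015, CCGGAAG was in 2 and AAGATGG in 1, whereas among the 17 of members not called CCGGAAG was in 6, GCATGC in 2 and AAGATGG in 2. These are matches of letters only.

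Levels are the authors' deposited log2 signals, and the arrays appeared to be normalized to each other, so each difference is taken as relative to the rest of the array. Array medians ran from 3.72 to 3.79 and replicate arrays correlated across genes at 0.992 to 0.995. Of 10 markers fixed for MV4-11, 8 were measured and 7 had a mean of at least 5, up to 10.51 for LYZ. Among markers of other cells, EPCAM was at 2.72, KRT8 at 5.24 and KRT18 at 7.73. MYC, which BET inhibitors are known to lower, differed from DMSO by -1.42 with OTX015, -1.16 with DW71177, -0.32 with RVX208 and -0.04 with DW71374 on the log2 scale, and HEXIM1, which they are known to raise, by 1.65, 1.11, 0.74 and 0.02. In bulk cells, fewer cells of a kind and less RNA per cell cannot be told apart.

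With OTX015, 10 of the 31 genes fell and 1 rose. The falls were small, from 1.11-fold to 1.65-fold. They were the complex I assembly factor NDUFAF8, the complex III genes UQCRHL and UQCRC2, the complex IV genes COX7B, COX6C, COX5A and COX4I1, and the complex V genes ATP5MK, ATP5IF1 and ATP5MJ. COX6A1 was the 1 called higher, by a feature whose assignment to that gene is uncertain, as described below. A gene was called at an adjusted p under 0.05 in limma with Benjamini-Hochberg adjustment over the 14812 genes. The 10 lower are 32.3% of the members, beside 14.5% of all genes called lower and 11.2% higher. Of the 11911 protein-coding genes, the class all members belong to, 17.2% were lower and 12.7% higher. Among genes with a mean of at least 5, where calls were more frequent, 9 of 22 members (40.9%) were lower and 1 was higher, beside 27.6% lower and 20.2% higher of all 6736 such genes. The median difference over the 31 members was -0.11, against -0.0038 over all genes. Of the 31, 27 lay below 0, as did 7529 of all 14812 genes. With quantile normalization added, the members' median was -0.068. With the 6 OTX015 and DMSO arrays fitted alone, 5 members were lower. Over all genes, that fit called 3198 in either direction, against 3800 with all 15 arrays. In it COX5A (limma adjusted p = 0.0549), ATP5MJ (0.0622), COX4I1 (0.0681), COX6C (0.0744) and UQCRC2 (0.124) did not pass.

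**Figure D1:**
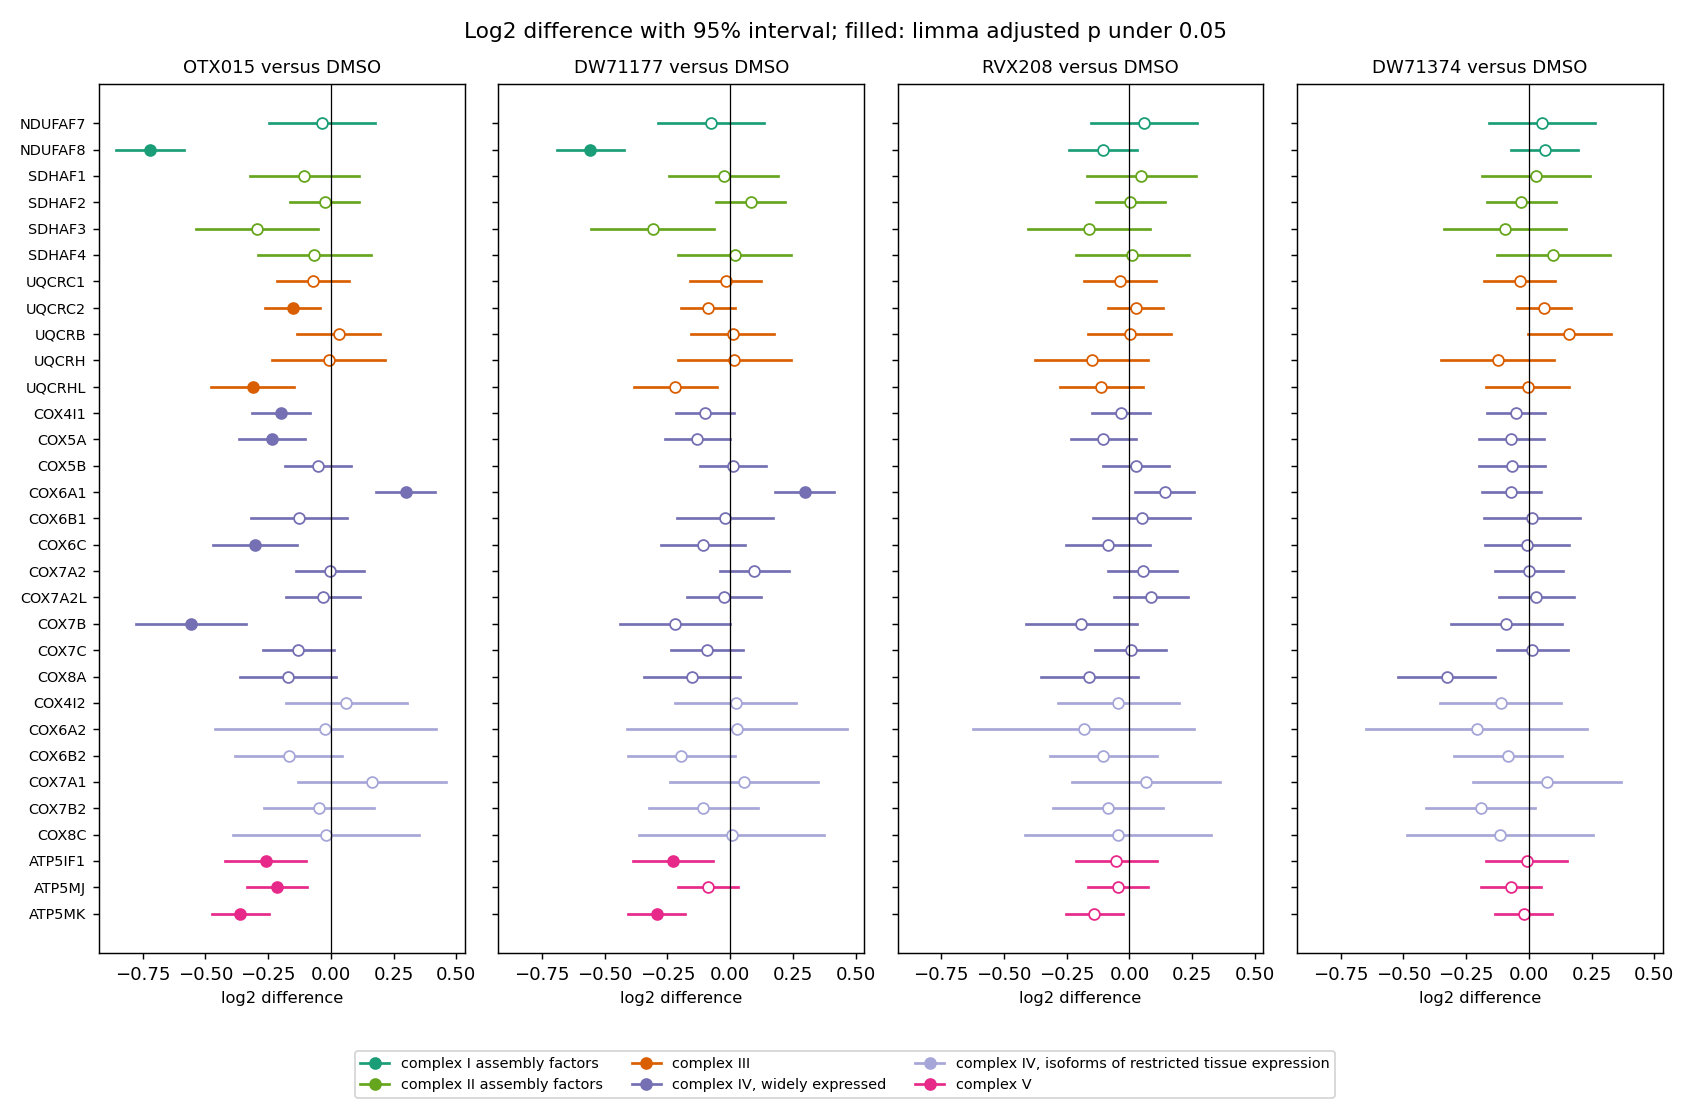
Log2 difference from DMSO of each of the 31 genes (rows, coloured by complex) for OTX015, DW71177, RVX208 and DW71374, with 95% intervals from the limma fit; filled points passed an adjusted p of 0.05. With OTX015, 10 points lie filled to the left of 0 and COX6A1 to the right; with RVX208 and DW71374 none is filled.

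NDUFAF8, an assembly factor of complex I, had the largest difference among the members. It measured 6.85, 6.90 and 6.90 with OTX015, 7.10, 7.09 and 6.97 with DW71177, 7.57, 7.40 and 7.54 with RVX208, 7.66, 7.69 and 7.66 with DW71374, and 7.53, 7.64 and 7.66 with DMSO. All OTX015 and DW71177 arrays lay below every DMSO array, while the RVX208 and DW71374 arrays overlapped DMSO. Of all genes, 19.5% lay wholly below DMSO with OTX015, 16.2% with DW71177, 13.3% with RVX208 and 5.98% with DW71374. Among genes with a mean of at least 5 these shares were 34.2%, 27.2%, 20.6% and 6.44%. The OTX015 difference of NDUFAF8 was -0.72 ± 0.063 (SE, n = 3 and 3), or 1.65-fold lower (limma adjusted p = 1.19e-06). The DW71177 difference was -0.56 ± 0.063, or 1.47-fold lower (limma adjusted p = 2.42e-05). NDUFAF7, the other complex I assembly factor and a methyltransferase, differed by -0.04 with OTX015 and -0.08 with DW71177 and was not called. Without DW71177 array 2 the DW71177 difference of NDUFAF7 was -0.2086 (adjusted p = 0.0847), and that against DW71374 was -0.2614 and passed (adjusted p = 0.032).

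None of the 4 complex II assembly factors was called in any comparison with all 15 arrays fitted together as described. SDHAF2 is needed to attach flavin to a complex II subunit, SDHAF4 acts on that subunit afterwards, and SDHAF1 and SDHAF3 serve the iron-sulfur subunit. SDHAF3, named after its values were seen, came nearest. It measured 4.46, 4.93 and 4.65 with OTX015, 4.60, 4.85 and 4.55 with DW71177, and 4.90, 5.01 and 5.03 with DMSO. The DW71177 arrays lay below the DMSO arrays and the OTX015 arrays overlapped them. Its difference was -0.29 with OTX015 (limma adjusted p = 0.0768) and -0.31 with DW71177 (limma adjusted p = 0.0743). SDHAF3 passed with OTX015 without OTX015 array 2 (-0.4181, adjusted p = 0.0105) and with the replicate block (0.0341), but was at -0.1847 (adjusted p = 0.303) without OTX015 array 1. It passed with DW71177 without DW71177 array 2 (-0.3994, adjusted p = 0.0335), with array weights (0.0338) and with the block (0.0337). It passed between OTX015 and DW71374 without OTX015 array 2 (adjusted p = 0.0413). The median over the 4 genes was -0.086 with OTX015.

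Of the 5 complex III genes, 2 fell with OTX015 and 0 with DW71177. UQCRC2, a core protein of the complex, measured 9.81, 9.89 and 9.86 with OTX015, 9.92, 9.90 and 9.94 with DW71177, and 10.02, 10.01 and 10.00 with DMSO. The groups did not overlap, yet the OTX015 difference was only -0.15 ± 0.050 (limma adjusted p = 0.0386). That call was lost on leaving out DMSO array 1 (adjusted p = 0.102), DMSO 2 (0.0865), DMSO 3 (0.078), OTX015 1 (0.127) or OTX015 3 (0.0764), and with the replicate number as a block (0.0618). Its partner core protein UQCRC1 measured 8.09, 8.17 and 8.31 with OTX015 and 8.19, 8.30 and 8.29 with DMSO. The groups overlapped, and UQCRC1 differed by -0.07 (limma adjusted p = 0.526; 95% interval -0.21 to 0.07), or by -0.02267 without OTX015 array 1 and -0.1294 without OTX015 array 3.

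UQCRHL, a near-identical copy of UQCRH, the hinge protein gene of complex III, measured 7.82, 8.02 and 7.97 with OTX015, 7.93, 8.03 and 8.11 with DW71177, and 8.27, 8.28 and 8.19 with DMSO. Both compounds' arrays lay below all DMSO arrays. UQCRHL fell by 0.31 with OTX015 (SE 0.077, limma adjusted p = 0.00752), while the DW71177 difference was -0.22 (limma adjusted p = 0.0636). The feature named UQCRH itself, named after its values were seen, differed by -0.01 with OTX015, and its sign changed on leaving out single arrays. The array signal of such copies cannot be assigned with certainty, so which of the pair changed is uncertain. UQCRB, a smaller subunit at a mean of 4.37, was not called with OTX015.

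Of the 11 widely expressed complex IV genes, 4 fell and 1 rose with OTX015, and 0 fell and 1 rose with DW71177. COX7B, a small structural subunit, measured 5.45, 5.97 and 5.85 with OTX015, 6.11, 6.13 and 6.04 with DW71177, 6.12, 6.19 and 6.05 with RVX208, 6.22, 6.22 and 6.23 with DW71374, and 6.34, 6.35 and 6.25 with DMSO. All 3 OTX015 arrays were the lowest of the 15, and the first was lower than the others by more than the spread of any other group. The OTX015 difference was -0.56 ± 0.10 (SE), or 1.47-fold lower (limma adjusted p = 0.00087). With DW71177 it was -0.22 (limma adjusted p = 0.168).

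COX5A and COX4I1, both structural subunits that join complex IV early in its assembly, fell less. COX5A measured 9.42, 9.45 and 9.37 with OTX015, 9.60, 9.44 and 9.51 with DW71177, and 9.55, 9.72 and 9.67 with DMSO. The OTX015 arrays lay below DMSO and the DW71177 arrays overlapped it. COX5A fell by 0.23 with OTX015 (SE 0.060, limma adjusted p = 0.00955), a call lost on leaving out DMSO array 2 (adjusted p = 0.0507). COX4I1, the common isoform of its subunit, measured 9.89, 9.97 and 9.95 with OTX015, 9.98, 10.08 and 10.05 with DW71177, and 10.16, 10.07 and 10.17 with DMSO. It fell by 0.20 with OTX015 (SE 0.054, limma adjusted p = 0.0135), a call lost without DMSO array 3 (adjusted p = 0.0578) or OTX015 array 1 (0.0546).

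COX6C, another small subunit, was dim. It measured 3.79, 3.79 and 3.77 with OTX015, 3.95, 4.01 and 3.98 with DW71177, and 4.02, 4.30 and 3.94 with DMSO. The OTX015 arrays were the lowest of the 3 groups. COX6C fell by 0.30 with OTX015 (SE 0.078, limma adjusted p = 0.00945), or by 0.197 without DMSO array 2 (adjusted p = 0.0334). It did not pass with the 6 arrays of the pair alone (adjusted p = 0.0744). It was the 1 called of the 9 members with a mean under 5.

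COX6A1, the widely expressed isoform of its subunit, was called the other way from the rest. It measured 10.71, 10.78 and 10.82 with OTX015, 10.72, 10.82 and 10.76 with DW71177, 10.59, 10.63 and 10.62 with RVX208, 10.43, 10.38 and 10.39 with DW71374, and 10.41, 10.47 and 10.53 with DMSO. The OTX015, DW71177 and RVX208 arrays all lay above every DMSO array. Of all genes, 16.7%, 16.4% and 12.7% lay wholly above DMSO with these compounds. Among genes with a mean of at least 5 the shares were 27.2%, 28.1% and 21.5%. COX6A1 rose by 0.30 ± 0.055 with OTX015 (limma adjusted p = 0.000891) and by 0.30 ± 0.055 with DW71177 (limma adjusted p = 0.00136). The gene had 2 features, and the identifier numbers of the one used lie among 20 neighbouring features that all name genes of chromosome 6, whereas COX6A1 is on chromosome 12. The second feature, whose 20 neighbours all name chromosome 12 genes, was dim at 2.24 with OTX015, 2.47 with DW71177 and 2.41 with DMSO, and differed by -0.17 with OTX015 and 0.05 with DW71177. With the mean of both features neither difference passed, at 0.065 (adjusted p = 0.789) with OTX015 and 0.176 (adjusted p = 0.398) with DW71177. The brighter feature was the only one of the members' features whose neighbours name genes of a chromosome other than the gene's own. Whether that feature reads COX6A1 was not tested.

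The other widely expressed complex IV genes, COX5B, COX6B1, COX7A2, COX7A2L, COX7C and COX8A, were not called with OTX015, the farthest from 0 being at -0.17. COX7A2L, which takes part in joining complexes III and IV into supercomplexes, measured 4.68, 4.77 and 4.80 with OTX015 and 4.78, 4.75 and 4.82 with DMSO. Those arrays overlapped, and the difference was -0.03 (limma adjusted p = 0.826; 95% interval -0.18 to 0.12). The 6 isoforms of restricted tissue expression, such as the lung form COX4I2, the muscle forms COX6A2 and COX7A1 and the testis forms COX6B2, COX7B2 and COX8C, differed by -0.17 to 0.17 with OTX015, and none was called in any comparison. All but COX4I2 had a mean under 5, from 2.00 for COX7B2 to 4.14 for COX6A2.

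All 3 complex V genes fell with OTX015, and 2 of them with DW71177. ATP5MK, a small membrane subunit linked to dimers of ATP synthase, measured 6.01, 6.05 and 5.96 with OTX015, 6.07, 6.09 and 6.06 with DW71177, 6.28, 6.24 and 6.16 with RVX208, 6.35, 6.33 and 6.36 with DW71374, and 6.41, 6.36 and 6.34 with DMSO. The OTX015, DW71177 and RVX208 arrays lay below every DMSO array, while those of DW71374 overlapped DMSO. With RVX208, 13.3% of all genes and 20.6% of those with a mean of at least 5 lay wholly below DMSO. ATP5MK, whose promoter is printed above with its CCGGAAG copies, fell by 0.36 ± 0.052 with OTX015 (1.28-fold, limma adjusted p = 0.000126). It fell by 0.29 ± 0.052 with DW71177 (1.22-fold, limma adjusted p = 0.00106).

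ATP5IF1 encodes the inhibitor that stops ATP synthase from running backwards. It measured 6.14, 6.11 and 6.12 with OTX015, 6.18, 6.28 and 6.00 with DW71177, and 6.43, 6.43 and 6.29 with DMSO. Both compounds' arrays lay below DMSO, narrowly so for 1 DW71177 array. ATP5IF1 fell by 0.26 ± 0.074 with OTX015 (limma adjusted p = 0.018) and by 0.23 ± 0.074 with DW71177 (limma adjusted p = 0.0449). The OTX015 call was lost without DMSO array 1 (adjusted p = 0.0687), DMSO 2 (0.0679) or OTX015 2 (0.0502). The DW71177 call was lost without DMSO 1 (0.14), DMSO 2 (0.138), DW71177 1 (0.0755) or DW71177 3 (0.189), and the last took the difference to -0.1531.

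ATP5MJ, another small membrane subunit of ATP synthase, measured 5.70, 5.80 and 5.65 with OTX015, 5.90, 5.84 and 5.79 with DW71177, and 5.96, 5.90 and 5.94 with DMSO. Of these 2 compounds, only OTX015 had all arrays below DMSO. The DW71374 arrays, at 5.87, 5.86 and 5.86, also lay below DMSO, at a difference of -0.07 (limma adjusted p = 0.994). ATP5MJ fell by 0.21 ± 0.055 with OTX015 (limma adjusted p = 0.00947), and the DW71177 difference was -0.09 (limma adjusted p = 0.33). The OTX015 call was lost with the 6 arrays of the pair alone (adjusted p = 0.0622).

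**Figure D2:**
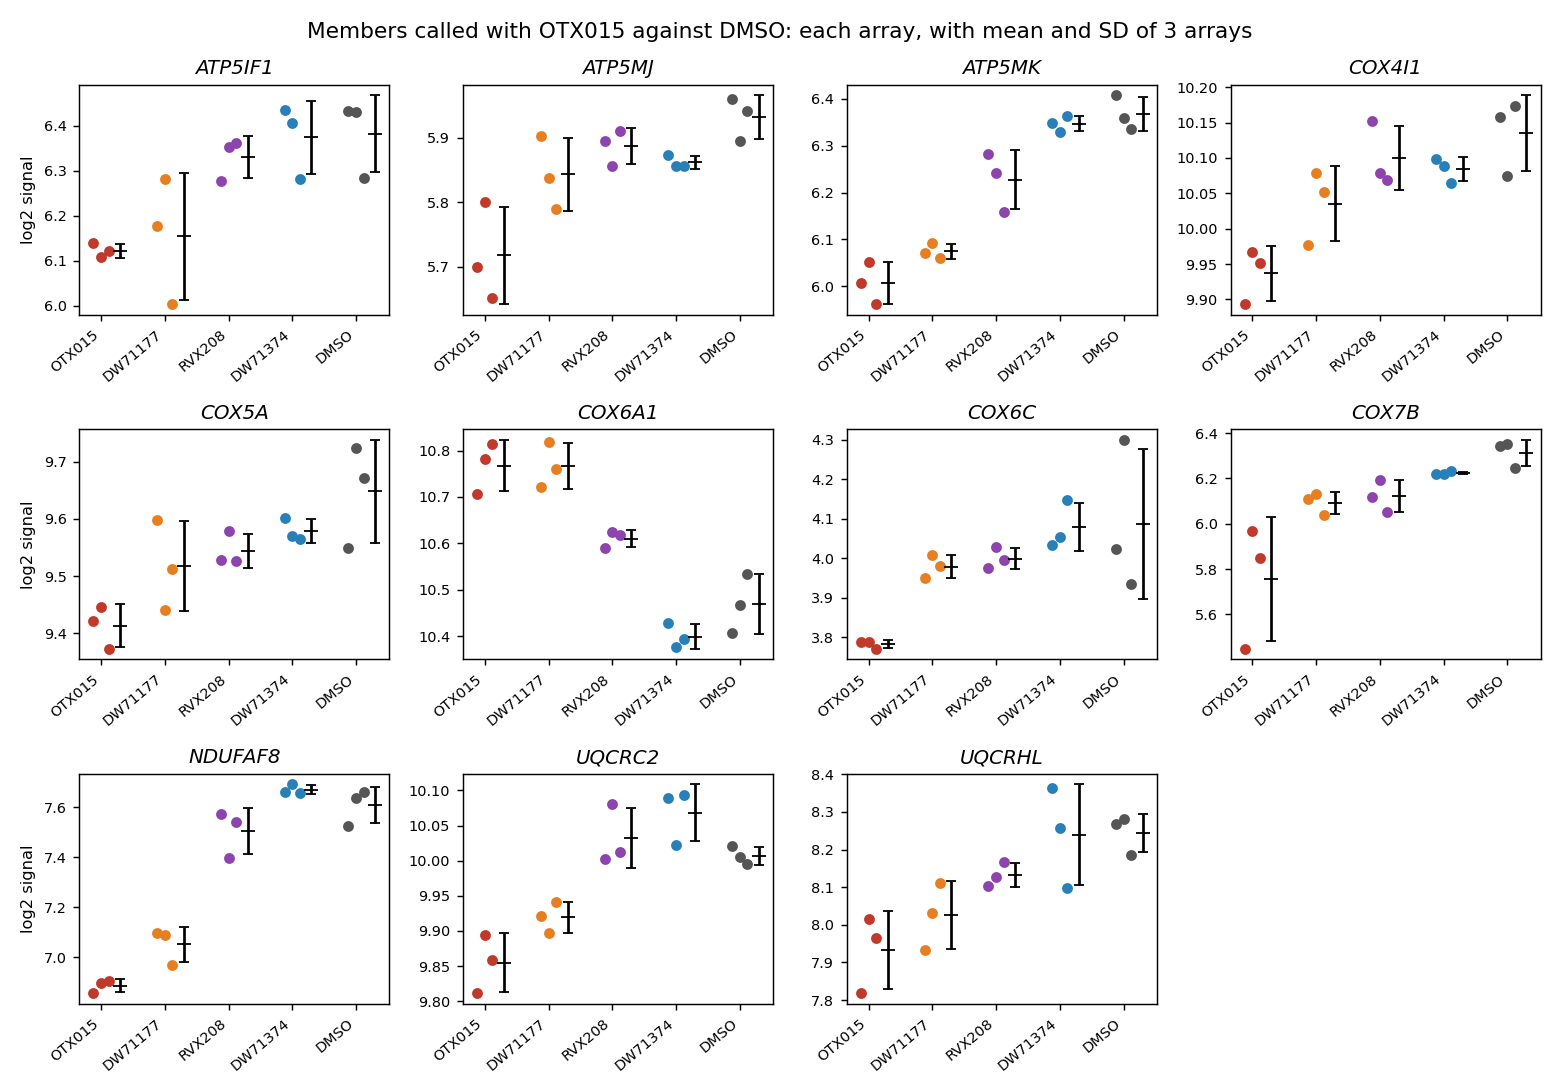
Log2 signal (vertical axis, own scale per gene, not starting at 0) of the 11 genes called with OTX015, for each of the 3 arrays of the OTX015, DW71177, RVX208, DW71374 and DMSO groups, with mean and SD beside the points. The 3 OTX015 points lie below the DMSO points in 10 genes and above them in COX6A1, in a set chosen for being called. Of all genes, 19.5% lay wholly below DMSO with OTX015 and 16.7% wholly above. Among genes with a mean of at least 5 these shares were 34.2% and 27.2%.

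With DW71177, 3 of 31 genes fell (NDUFAF8, ATP5MK and ATP5IF1) and 1 rose (COX6A1, by its feature of uncertain assignment). The background was 9.88% of genes called lower and 9.95% higher, so the 9.68% of members called lower was close to it. Among genes with a mean of at least 5, 3 of 22 members (13.6%) were lower and 1 (4.55%) higher, beside 18.9% and 18.8% of all such genes. The DW71177 arrays lay wholly below DMSO in 8 members (25.8%) and wholly above in 2 (6.45%), beside 16.2% and 16.4% of all genes. The members' median was -0.077 against -0.0059 over all genes, and without DMSO array 2 it was -0.04048. Of the 31 members 20 lay below 0, as did 7603 of all 14812 genes. With a variance model that follows the signal level, 7 members were lower, the additional genes being UQCRHL, COX4I1, COX5A and UQCRC2. Over all 14812 genes, calls in either direction also rose under that model, from 2937 to 3315. The OTX015 and DW71177 comparisons share the DMSO arrays and so are not independent of each other.

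With RVX208, 0 of 31 genes were called, where 6.52% of all genes were called. The median was -0.044 against -0.010 over all genes. An unadjusted limma p under 0.05 was found in 2938 of 14812 genes and in 2 members. These members were ATP5MK, at -0.14 ± 0.052 (limma adjusted p = 0.144), and the feature named COX6A1, at 0.14 ± 0.055 (limma adjusted p = 0.159). Among genes with a mean of at least 5 alone, both passed. The RVX208 arrays lay wholly below DMSO in 4 members (12.9%) and wholly above in 2 (6.45%), beside 13.3% and 12.7% of all genes. The 95% intervals of 30 of the 31 genes stayed within 1.5-fold of DMSO. RVX208 was given at 5 uM and the other compounds at 300 nM, so its values stand beside theirs without a comparison.

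With DW71374, 0 of 31 genes were called by limma, and 0% of all genes were called. The median was -0.029, and 1 member had an unadjusted limma p under 0.05, as did 686 of all 14812 genes. COX8A, a small complex IV subunit named after its values were seen, measured 10.05, 9.91 and 9.98 with DW71374, 9.96, 10.27 and 10.18 with OTX015, 10.17, 10.16 and 10.14 with DW71177, and 10.31, 10.37 and 10.24 with DMSO. The DW71374 arrays lay below all DMSO arrays, at a difference of -0.33 ± 0.089 (limma adjusted p = 0.95). COX8A did not pass the test. The DW71374 arrays lay wholly below DMSO in 4 members (12.9%) and wholly above in 1 (3.23%), beside 5.98% and 4.69% of all genes. The intervals of 30 of 31 genes stayed within 1.5-fold of DMSO.

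**Figure D3:**
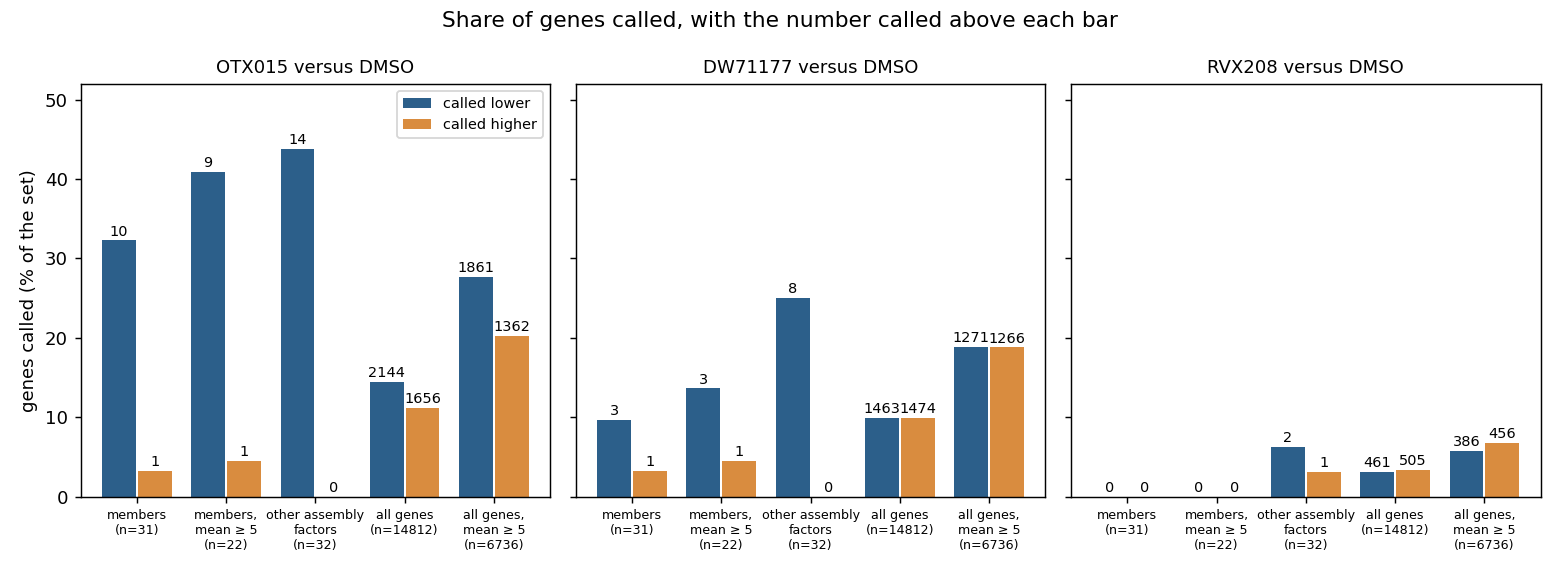
Percentage of genes called lower or higher against DMSO with OTX015, DW71177 and RVX208, for the 31 members, the 22 members with a mean of at least 5, 32 other assembly factors, all genes and all genes with a mean of at least 5; numbers above the bars are counts. With OTX015, 10 of 31 members and 14 of the 32 assembly factors are lower; with RVX208, 0 members are called.

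OTX015, DW71177 and DW71374 were given at the same dose and time, which allowed 3 pairs to be compared, with p-values adjusted over all genes within each pair. Between DW71177 and OTX015, 0 of 31 members were called by limma, where 1.07% of all genes were higher with DW71177 and 0.182% lower. The median difference was 0.054 against 0.012 over all genes and 0.037 over all genes with a mean of at least 5. An unadjusted limma p under 0.05 was found in 2032 of 14812 genes and in 4 members, each of these with a positive difference. COX7B differed by 0.34 ± 0.10 (95% interval 0.12 to 0.56, limma adjusted p = 0.137), NDUFAF8 by 0.17 ± 0.063 (0.03 to 0.30, limma adjusted p = 0.248), COX6C by 0.20 ± 0.078 (0.03 to 0.36, limma adjusted p = 0.274) and ATP5MJ by 0.13 ± 0.055 (0.0072 to 0.24, limma adjusted p = 0.329). The COX7B arrays with DW71177 all lay above those with OTX015, as did those of 10.5% of all genes and 18.2% of genes with a mean of at least 5. Among genes with a mean of at least 5 alone, COX7B passed (adjusted p = 0.0417). Without OTX015 array 1, the lowest of the COX7B values, its difference was 0.1834 (adjusted p = 0.286). For all 31 genes the interval lay within 1.5-fold, which bounds the difference between the compounds without showing that they act alike.

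Between DW71177 and DW71374, 2 genes were lower with DW71177 and 1 higher, where 9.51% of all genes were lower and 9.98% higher. NDUFAF8 fell by 0.62 ± 0.063 (limma adjusted p = 1.01e-05) and ATP5MK fell by 0.27 ± 0.052 (limma adjusted p = 0.00182). The feature named COX6A1, of uncertain assignment, rose by 0.37 ± 0.055 (limma adjusted p = 0.000259). The count lower was 4 without DW71177 array 2 and 4 without DW71374 array 3. Between OTX015 and DW71374, 7 genes were lower with OTX015 and 1 higher, where 14% of all genes were lower and 11.1% higher. Among genes with a mean of at least 5, 6 of 22 members (27.3%) were lower and 1 higher. Of all 6736 such genes 26.9% were lower and 20.2% higher, so the share lower was close to the background. The 7 lower were NDUFAF8 (-0.78), COX7B (-0.47), ATP5MK (-0.34), UQCRHL (-0.31), COX6C (-0.30), ATP5IF1 (-0.25) and UQCRC2 (-0.21), with the feature named COX6A1 at 0.37. ATP5IF1 did not pass without DW71374 array 1 (adjusted p = 0.0858), DW71374 2 (0.0738), OTX015 2 (0.0594) or OTX015 3 (0.0543), nor COX6C without DW71374 3 (0.051). COX6A1 did not pass with the mean of its features (adjusted p = 0.136). UQCRC2 (0.0532) and UQCRHL (0.0555) did not pass with the 6 arrays of the pair alone, a fit that called 3066 of all genes against 3730. COX5A, COX4I1 and ATP5MJ differed by -0.17, -0.15 and -0.14 and did not pass (limma adjusted p = 0.0619, 0.0624 and 0.0747). All 3 passed among genes with a mean of at least 5 alone (adjusted p = 0.017, 0.0152 and 0.0198). COX5A and COX4I1 also passed with the variance model that follows the signal level (0.00638 and 0.00283). So did COX4I1 with quantile normalization (0.0439) and ATP5MJ without OTX015 array 2 (0.0334).

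Further genes that serve the same complexes fall outside the naming rule. Of 38 further assembly factors listed, 32 were measured, and 14 fell and 0 rose with OTX015 (median -0.21), 8 fell and 0 rose with DW71177 (median -0.11), and 2 fell and 1 rose with RVX208 (median -0.036). Of the 32, 28 had a mean of at least 5. Among all genes of that brightness 27.6% were lower and 20.2% higher with OTX015, and 18.9% lower and 18.8% higher with DW71177. With RVX208, 5.73% of them were lower and 6.77% higher, beside 3.11% and 3.41% of all genes. With DW71374, 0 were called by limma and 0 had an unadjusted p under 0.05. COA7, a heme-binding complex IV assembly factor, averaged 6.07 ± 0.14 with OTX015, 6.43 ± 0.13 with DW71177, 6.79 ± 0.10 with RVX208, 7.11 ± 0.12 with DW71374 and 7.21 ± 0.08 with DMSO (SD, n = 3 each). It fell 2.20-fold with OTX015 (log2 -1.14 ± 0.093, limma adjusted p = 7.01e-07). COA6 and SCO1, which act in the delivery of copper to complex IV, fell by 0.93 and 0.67 with OTX015 and by 0.72 and 0.57 with DW71177. COA4, another complex IV assembly factor, fell by 0.57 and 0.58.

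The RVX208 calls in that list were fragile. COA7 fell by 0.41 with RVX208 (limma adjusted p = 0.0169) but did not pass without DMSO array 1 (0.0556), DMSO 3 (0.0713) or RVX208 1 (0.0747). COA6 fell by 0.29 (limma adjusted p = 0.0278) but did not pass without DMSO 1 (0.069), DMSO 2 (0.109), RVX208 1 (0.0876), RVX208 2 (0.0503) or RVX208 3 (0.0899). SURF1, a complex IV assembly factor, rose by 0.33 (limma adjusted p = 0.0492), and no fit that left out a DMSO or RVX208 array kept that call (adjusted p 0.0511 to 0.159). With the 6 arrays of the pair alone, 4 of the factors were lower with DW71177. Over all genes, that fit called 2226 in either direction, against 2937 with all arrays. Between DW71177 and OTX015, 1.07% of all genes and 2.14% of those with a mean of at least 5 were higher with DW71177. Of the 32 factors 3 (9.38%) were higher, and were named after their values were seen. These were UQCC2, a complex III assembly factor, at 0.45 (limma adjusted p = 0.0101), TACO1, a translational activator of a mitochondrially encoded complex IV subunit, at 0.29 (limma adjusted p = 0.0406), and COA3, a complex IV assembly factor, at 0.26 (limma adjusted p = 0.0275). TACO1 did not pass without any 1 of the DW71177 or OTX015 arrays (adjusted p 0.0685 to 0.125). COA3 did not pass without DW71177 array 1 (0.0837), DW71177 2 (0.054), DW71177 3 (0.0769), OTX015 1 (0.0714) or OTX015 3 (0.0852). With the 6 arrays of the pair alone none of the 3 passed (0.277 to 0.353), in a fit that called only 1 of all 14812 genes.

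CYC1, the cytochrome c1 subunit of complex III, lies outside the rule because of its symbol. It averaged 8.22 ± 0.11 with OTX015, 8.34 ± 0.06 with DW71177, 8.54 ± 0.08 with RVX208, 8.68 ± 0.06 with DW71374 and 8.81 ± 0.05 with DMSO (SD, n = 3 each). It fell by 0.59 ± 0.068 with OTX015 on the log2 scale (limma adjusted p = 1.69e-05). It fell by 0.47 with DW71177 (limma adjusted p = 0.000186). It fell by 0.27 with RVX208 (limma adjusted p = 0.0306), a call lost without DMSO array 1 (0.0649), DMSO 2 (0.0702), DMSO 3 (0.115), RVX208 2 (0.121) or RVX208 3 (0.0759). HCCS, which attaches heme to cytochromes of the c type, was the other measured gene of the 7 listed for cytochrome c and ADP/ATP carriers, and it differed by -0.12 with OTX015, or -0.06381 without OTX015 array 3, and was not called.

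Of 18 genes listed for mitochondrial biogenesis and DNA expression, 8 were measured, and 5 fell with OTX015, 4 with DW71177 and 1 with RVX208, with none higher. Of the 8, 7 had a mean of at least 5, where the background was 27.6%, 18.9% and 5.73% lower and 20.2%, 18.8% and 6.77% higher. TWNK, the mitochondrial DNA helicase, fell by 0.89 with OTX015 (limma adjusted p = 2.99e-07), by 0.95 with DW71177 and by 0.39 with RVX208 (limma adjusted p = 0.00273). POLRMT, the mitochondrial RNA polymerase, fell by 0.48 with OTX015 and by 0.30 with DW71177, and LRPPRC, which stabilises mitochondrial messenger RNAs, fell by 0.33 with each. MTERF3, a regulator of mitochondrial transcription, fell by 0.36 with OTX015 and by 0.28 with DW71177. The DW71177 call of MTERF3 did not pass without DMSO array 1 (adjusted p = 0.075), DMSO 3 (0.0925), DW71177 1 (0.0879) or DW71177 3 (0.0514). The factor gene YY1 fell by 0.24 with OTX015 (SE 0.082, limma adjusted p = 0.0493). It did not pass without DMSO array 1 (0.103), DMSO 2 (0.207), OTX015 1 (0.0655), OTX015 2 (0.0661) or OTX015 3 (0.178), nor with the replicate block (0.0734), quantile normalization (0.117), array weights (0.0701) or 6 arrays (0.107). The factor genes NRF1 and ESRRA were not called with OTX015. The 13 mitochondrially encoded subunits were not analysed here.

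Of 18 listed genes of the TCA cycle and pyruvate dehydrogenase, which supply the chain with electrons, 10 were measured. With OTX015, 2 rose and 4 fell (median 0.053). With DW71177, 2 rose and 1 fell, and with RVX208, 2 rose and 0 fell. All 10 had a mean of at least 5, where 20.2% of genes were higher and 27.6% lower with OTX015, 18.8% and 18.9% with DW71177, and 6.77% and 5.73% with RVX208, so in a list of 10 the OTX015 and DW71177 counts lie near the background. OGDH, part of the 2-oxoglutarate dehydrogenase complex, rose by 0.66 with OTX015, by 0.60 with DW71177 and by 0.41 with RVX208 (limma adjusted p = 0.00388). PDHB, a pyruvate dehydrogenase subunit, rose by 0.30, 0.35 and 0.39 with the same compounds. DLAT, the acetyltransferase of that complex, fell by 0.52 with OTX015 and by 0.43 with DW71177. The OTX015 count of 4 lower was 2 without DMSO array 1, DMSO 2, OTX015 2 or OTX015 3, 2 with quantile normalization and 1 with the 6 arrays of the pair alone. The DW71177 count of 1 lower was 2 without DW71177 array 2.

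**Figure D4:**
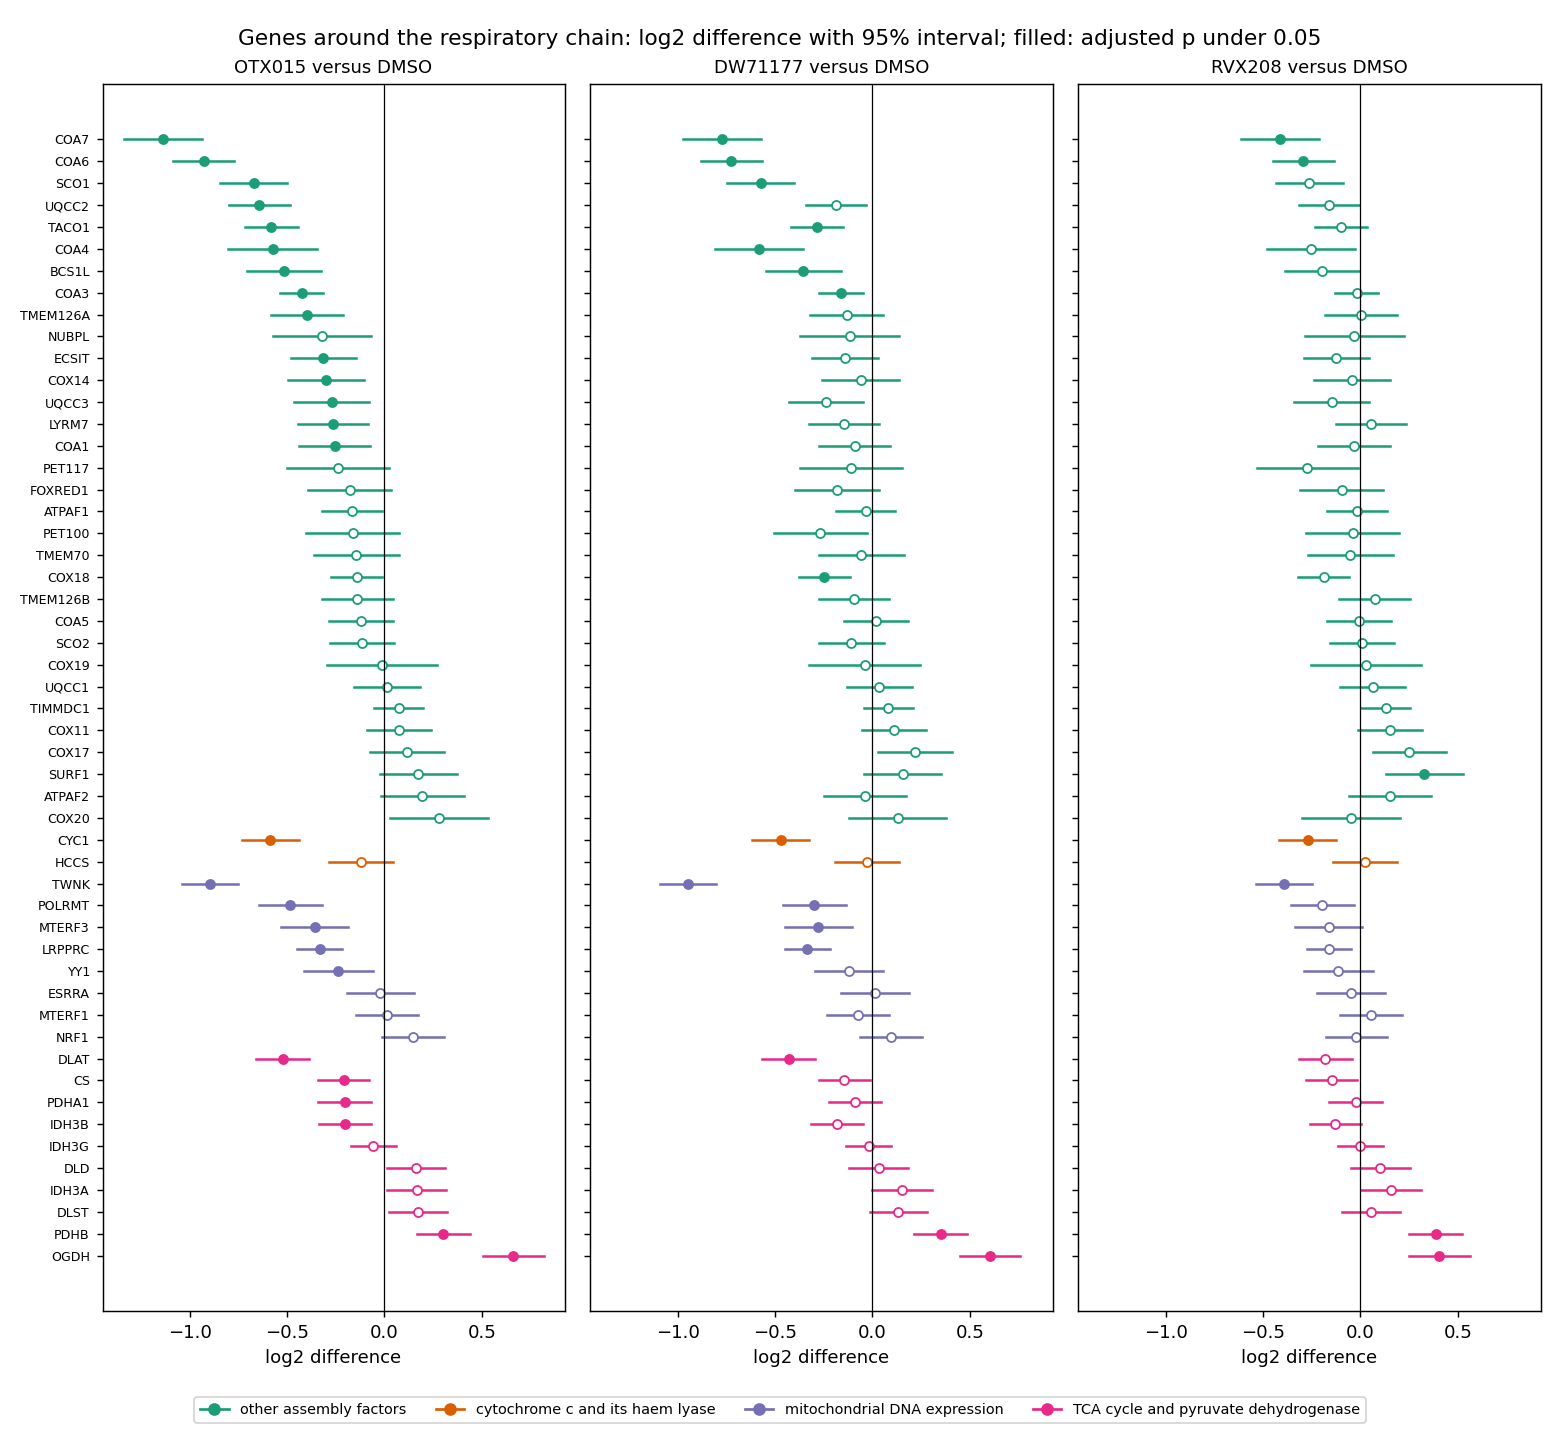
Log2 difference from DMSO with 95% intervals for genes around the respiratory chain (rows, coloured by list) with OTX015, DW71177 and RVX208; filled points passed an adjusted p of 0.05. COA7 at -1.14 lies farthest left with OTX015, and OGDH at 0.66 farthest right.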

How the data were processed

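The authors' deposited table held log2 signals of 44629 features on 15 arrays; that they are log2 was judged from their range. Array medians from 3.72 to 3.79 point to normalization before deposit. Its method, the background correction, the software and the build are not stated in the sources used here. The platform annotation named 15835 features to 1 gene, 0 to several and 28794 to none, and all 15835 matched RefSeq, of whose genes 11911 were protein-coding. A gene took its feature of highest mean over the 15 arrays. A further 3 symbols that begin as the rule states are not protein-coding and were left out.

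Groups came from the sample titles. Group differences came from limma 3.58.1 under R 4.3.3 (functions lmFit and eBayes, one fit of 5 group means, 10 residual degrees of freedom, no covariates), two-sided, with Benjamini-Hochberg adjustment over 14812 genes within each of 7 comparisons and a threshold of 0.05; the code was tested on simulated data. No level filter was used. No background level is given, so a fold of a gene with a mean under 5, a level chosen after values were seen, is at best a lower bound. Arrays give no counting depth, and their number limits the precision. In 29 to 62 genes per group, no member among them, the 3 arrays held 1 identical value. Some members did repeat a value, equal after rounding, such as UQCRB at 4.3977 in DMSO array 3 and DW71177 arrays 1 and 2.

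Members with values in the text were, per compound and complex, up to 3 called genes with the largest difference, genes called against the majority, and 15 fixed genes, of which 5 were measured. The members, lists and rules were chosen with earlier results of these data known. Alternatives were a variance model with trend and robust settings, quantile normalization, the mean of a gene's features, genes with a mean of at least 5, array weights, a replicate block, the 6 arrays of a pair, and leaving out each array. Same-numbered arrays did not deviate together (30 pairs, r -0.087 to 0.098), so no pairing by number was used. Whether the numbers pair samples is not stated, and weak correlations cannot settle it. Promoters came from RefSeq (GRCh38.p14), with coordinates of that build.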

Additional observations from a re-analysis of the deposited data

How the results depend on the processing

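No called member's difference changed sign under any alternative run. Some differences that were not called did. Against DMSO these were in 10 of 20 members with OTX015, 13 of 27 with DW71177, 15 of 31 with RVX208 and 12 of 31 with DW71374. The largest of those sizes were 0.05, 0.077, 0.183 and 0.098. Leaving out 1 array gave ranges across 0 for UQCRH (-0.05151 to 0.03368), UQCRB (-0.02865 to 0.08913), COX7A2L (-0.05388 to 0.00339) and NDUFAF7 (-0.08789 to 0.01811) with OTX015, for NDUFAF7 (-0.2086 to 0.01028), COX7A2L (-0.07859 to 0.02197) and UQCRC1 (-0.05165 to 0.003538) with DW71177, for COX6C (-0.1622 to 0.01954), UQCRC1 (-0.07213 to 0.01064) and UQCRC2 (-2e-06 to 0.03942) with RVX208, and for ATP5IF1 (-0.05733 to 0.03783), ATP5MK (-0.03562 to 0.0002687), COX6C (-0.08342 to 0.09834) and UQCRHL (-0.06586 to 0.06654) with DW71374. Quantile normalization turned COX6C with DW71374 to 0.00682 and NDUFAF7 with OTX015 to 0.00348, and array weights turned UQCRHL with DW71374 to 0.002635.

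With the 6 arrays of the pair alone, 5 members were lower with OTX015 against DMSO. With trend and robust settings, 7 were lower with DW71177 against DMSO, 5 lower with DW71177 against DW71374 and 1 higher with RVX208. With genes of a mean of at least 5, 5 were lower with DW71177 against DW71374, 1 was higher with DW71177 against OTX015, and with RVX208 1 was higher and 1 lower. With the mean of a gene's features, 0 were higher with OTX015 against DMSO, with DW71177 against DMSO, and with OTX015 against DW71374. The cause was not tested, except that the 6-array fits have fewer samples, the level filter fewer genes, and the feature mean adds the dim COX6A1 feature.

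Leaving out 1 array gave 7 to 10 members lower with OTX015 against DMSO, 2 to 4 with DW71177 against DMSO, 2 to 4 with DW71177 against DW71374 and 6 to 8 with OTX015 against DW71374, and no other count of members called changed. Medians ran from -0.1327 to -0.08284 (OTX015), -0.09015 to -0.04048 (DW71177), -0.05706 to -0.0178 (RVX208) and -0.06003 to -0.02417 (DW71374) against DMSO, 0.03814 to 0.0804 for DW71177 against OTX015, and -0.147 to -0.09002 for OTX015 against DW71374. Where an arm keeps 2 arrays, the shared spread of all groups is used.

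With the replicate block, 10 members were lower with OTX015 and 4 with DW71177. UQCRC2 with OTX015 lost its call (adjusted p = 0.0618), and SDHAF3 gained one with OTX015 (0.0341) and DW71177 (0.0337). Whether the numbers pair the arrays is not known: 7 of 15 arrays correlated best with their own number.

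Over all genes, calls with RVX208 numbered 966, but 1485 with trend, 1576 with the level filter, 609 with 6 arrays and 564 to 636 with 1 array left out. Calls between DW71177 and OTX015 numbered 186, but 497 with trend, 593 with the level filter, 118 with array weights, 107 with the block, 1 with 6 arrays and 71 to 139 with 1 array left out. Against DMSO, calls with OTX015 numbered 3800, but 3198 with 6 arrays, and those with DW71177 2937, but 3315 with trend. Calls between DW71177 and DW71374 numbered 2887, but 3214 with trend and 3125 with the level filter. The level filter left 6736 genes, the other fits 14812.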
